A study of Mus musculus with 42 samples.

Results

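Dbp, Tef, Hlf, Nfil3, Bhlhe40, Bhlhe41, Rora and Usp2 are genes through which the circadian clock reaches the rest of the liver transcriptome. They were taken as a list of gene names, with no value used in the rule, though the list was chosen with earlier results of these data known. All 8 were listed in each of 6 tables of liver RNA, out of 19732 genes listed in at least 1 table. Livers came from 42 male C57BL/6J mice, 7 in each of 6 groups, with 1 library per mouse. WT lean and KO lean mice ate a lean diet with 10% of its energy as fat, and WT obese and KO obese mice a high fat diet with 60%, from 6 weeks of age for 15 weeks. WT obese+RvE1 and KO obese+RvE1 mice were on the same high fat diet and received 300 ng of RvE1 into the peritoneum on 4 consecutive days, while the mice of the other 4 groups, lean ones included, received ethanol and PBS vehicle. KO mice lack ChemR23, the receptor for RvE1 that Cmklr1 encodes, through CRISPR/Cas9 genome editing, and WT mice were littermates. All mice were harvested on day 5 after a fast of at least 4 h. The hour of harvest is not given in the sources used here.

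On GRCm38, the activator genes lie at chr7:45705088-45710203 (Dbp), chr15:81802421-81826863 (Tef) and chr11:90336536-90390895 (Hlf), and their opponent Nfil3 at chr13:52967209-52981073. Chromosome 6 carries both Bhlhe40 (chr6:108660629-108666925) and Bhlhe41 (chr6:145858243-145865558), and chromosome 9 both Rora (chr9:68653786-69388246) and Usp2 (chr9:44067021-44095627).

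In the liver, the clock is a loop in which CLOCK and BMAL1 (the product of Arntl) bind E-box elements and switch on their own repressors, the PER and CRY proteins. DBP, TEF and HLF are the PAR bZIP activators, which bind D-box elements in genes of drug, bile acid and lipid metabolism, and NFIL3 represses through the same elements. BHLHE40 and BHLHE41 (DEC1 and DEC2) repress at E-boxes, RORA activates at the ROR elements where the REV-ERB proteins (Nr1d1 and Nr1d2) repress, and USP2 is a deubiquitinase that is itself under clock control. Transcripts of several of these genes change over the day by a large factor, so a single harvest shows each liver at 1 point of its cycle.

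A window of 250 bases before and 50 after each gene's start was searched on both strands. The motifs were the E-box CACGTG, the D-box forms TTACGTAA and TTATGTAA, the ROR element core TAGGTCA and the cAMP response element TGACGTCA. RefSeq windows of 300 bases on GRCm38.p6 were at hand for 7 of the 8 genes, with 2 windows for Tef. Bhlhe40 had no window. The E-box stood in 3 of these 8 windows, both of Tef and the one of Bhlhe41, against 7.15% of 32851 windows of all genes. The cAMP response element stood in the Hlf window (1.79% of all windows) and the ROR core, read on the opposite strand, in the Nfil3 window (2.61%). Neither D-box form stood in any of the 8, and they stood in 0.119% and 0.938% of all windows. The 5 stretches with a motif are printed 5′ to 3′ on the gene's strand with the motif in capitals, so that the elements named above can be seen in place. The stretch of Nfil3 and both of Tef lie inside the gene bounds given above. So does the whole window of Usp2 (chr9:44084670-44084969), at a start within the gene, and it held none of the motifs.

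Tef, second start, chr15:81811164-81811413, plus strand: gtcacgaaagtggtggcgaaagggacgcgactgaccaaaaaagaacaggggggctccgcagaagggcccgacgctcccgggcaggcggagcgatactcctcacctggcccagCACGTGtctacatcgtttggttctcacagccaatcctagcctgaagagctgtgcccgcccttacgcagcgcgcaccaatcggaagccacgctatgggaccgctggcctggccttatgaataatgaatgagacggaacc
Tef, first start, chr15:81802534-81802563, plus strand: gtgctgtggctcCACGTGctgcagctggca
Bhlhe41, chr6:145865559-145865670, minus strand: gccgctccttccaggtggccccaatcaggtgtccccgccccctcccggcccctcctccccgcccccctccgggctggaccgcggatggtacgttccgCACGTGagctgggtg
Hlf, chr11:90390918-90391167, minus strand: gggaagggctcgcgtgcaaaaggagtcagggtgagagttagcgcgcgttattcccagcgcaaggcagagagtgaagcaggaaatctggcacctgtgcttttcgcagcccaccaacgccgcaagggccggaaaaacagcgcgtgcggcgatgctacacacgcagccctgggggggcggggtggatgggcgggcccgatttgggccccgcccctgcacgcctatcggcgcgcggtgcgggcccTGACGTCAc
Nfil3, chr13:52981033-52981062, minus strand: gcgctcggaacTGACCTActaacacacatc

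Values are the authors' normalized counts, reads scaled by 1 size factor per library that was estimated separately for each table, so groups were compared only within a table. Between 15960120 and 43755273 reads per mouse fell on listed genes, with a median of 24253532. In the diet tables Cmklr1, the targeted gene, lay between 30.1 and 110 normalized counts in WT mice and between 5.29 and 24.9 in KO mice. All 6 hepatocyte markers were listed, with a summed level of 765398 to 1495205 normalized counts in the WT diet table and 1001025 to 1650826 in the KO diet table. In whole liver, fewer cells of a type and less RNA per cell cannot be told apart. The mice were separate animals, and each opens its identifier with a number that up to 4 mice of a group share. What that number stands for is not given in the sources used here, and 17 numbers cover the 42 mice.

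Per length of exon (GENCODE M21, GRCm38), the 8 genes fell into a high set of 6 and a low pair. In WT lean livers the highest mean levels were those of Nfil3 at 823 ± 419 and Bhlhe40 at 810 ± 294 normalized counts per kilobase (SD over 7 mice), followed by Tef (516 ± 156), Dbp (407 ± 211), Hlf (256 ± 71.9) and Usp2 (209 ± 148). Rora (32.7 ± 6.20) and Bhlhe41 (19.2 ± 8.62) stood lowest there and in the other 3 groups of the diet tables. Among neighbours in the WT lean order, the steps from Bhlhe40 to Tef, from Usp2 to Rora and from Rora to Bhlhe41 exceeded the larger of both SDs, and the other steps did not. In WT obese livers Tef led at 798 ± 74.7, and in KO obese livers Bhlhe40 did at 976 ± 580, in each case by less than the larger SD.

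The high fat diet was first compared with the lean diet in WT mice, which asks what obesity does to these genes when the receptor is present. Of the 8 genes, 1 was called, Tef, which rose, against 3.80% of the 14012 genes tested (2.26% higher and 1.53% lower). A call is an adjusted p under 0.1 by limma, with Benjamini-Hochberg adjustment over all genes tested, and a fold change above 1.5. The median log2 fold change of the 8 genes was 0.13, beside 0.0030 over all genes tested. With no fold threshold 2 of the 8 passed, Tef and Hlf (6.27% of all genes), at an unadjusted p under 0.05 there were 5 (18.2% of all genes), and in 0 of the 8 were the groups without overlap (1.36% of all genes).

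Among the PAR bZIP activators, Tef ranged from 2353 to 5630 normalized counts in WT lean mice, with a median of 4531, and from 5574 to 7342 with a median of 6375 in WT obese mice. The groups overlapped in 1 mouse of each, and the other 6 obese mice lay above every lean mouse. The log2 fold change of Tef was 0.69 ± 0.18 (SE), with an adjusted p of 0.0433. Hlf ran from 994 to 2300 with a median of 1730 in WT lean mice and from 1902 to 3091 with a median of 2485 in WT obese mice, and 5 obese mice lay above every lean one. Its log2 fold change of 0.56 ± 0.17 had an adjusted p of 0.0903 but a fold of 1.48, under the fold threshold. Dbp overlapped more widely, from 560 to 2430 in lean and from 1067 to 2749 in obese mice, with a log2 fold change of 0.70 ± 0.30 and an adjusted p of 0.217.

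Nfil3, the repressor at the same D-boxes, had values from 762 to 3158 with a median of 1387 in WT lean mice and from 348 to 1590 with a median of 504 in WT obese mice. Below every lean mouse lay 5 of the 7 obese mice, and the log2 fold change of -1.18 ± 0.38 stood at an adjusted p of 0.1001, just outside the threshold. The E-box repressors and Rora did not pass the test in WT mice. Their log2 fold changes were -0.30 ± 0.23 for Bhlhe40, -0.60 ± 0.31 for Bhlhe41 and -0.34 ± 0.17 for Rora, with adjusted p-values from 0.294 to 0.531.

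Usp2 spread most widely of the 8 genes. In WT lean mice it ran from 120 to 2066 normalized counts with a median of 1200, a 17.2-fold range, and in WT obese mice from 1045 to 3273 with a median of 1448. The log2 fold change of 1.24 ± 0.58 was larger than that of Tef, and with this spread its adjusted p was 0.269. When mice with the same identifier number were treated as a random block, 0 of the 8 genes passed, and Tef had an adjusted p of 0.104. Leaving out all mice of number 6 or of number 27 put the adjusted p of Tef at 0.171 and 0.154, and leaving out number 8 took its log2 fold change to 0.42, under the fold threshold. WT lean replicates 6 and 7, the mice of number 8, did so singly as well (0.57 and 0.58). With library quality weights Tef had a log2 fold change of 0.57, under the fold threshold, and Nfil3 passed, with -1.23 at an adjusted p of 0.0477.

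**Figure D1:**
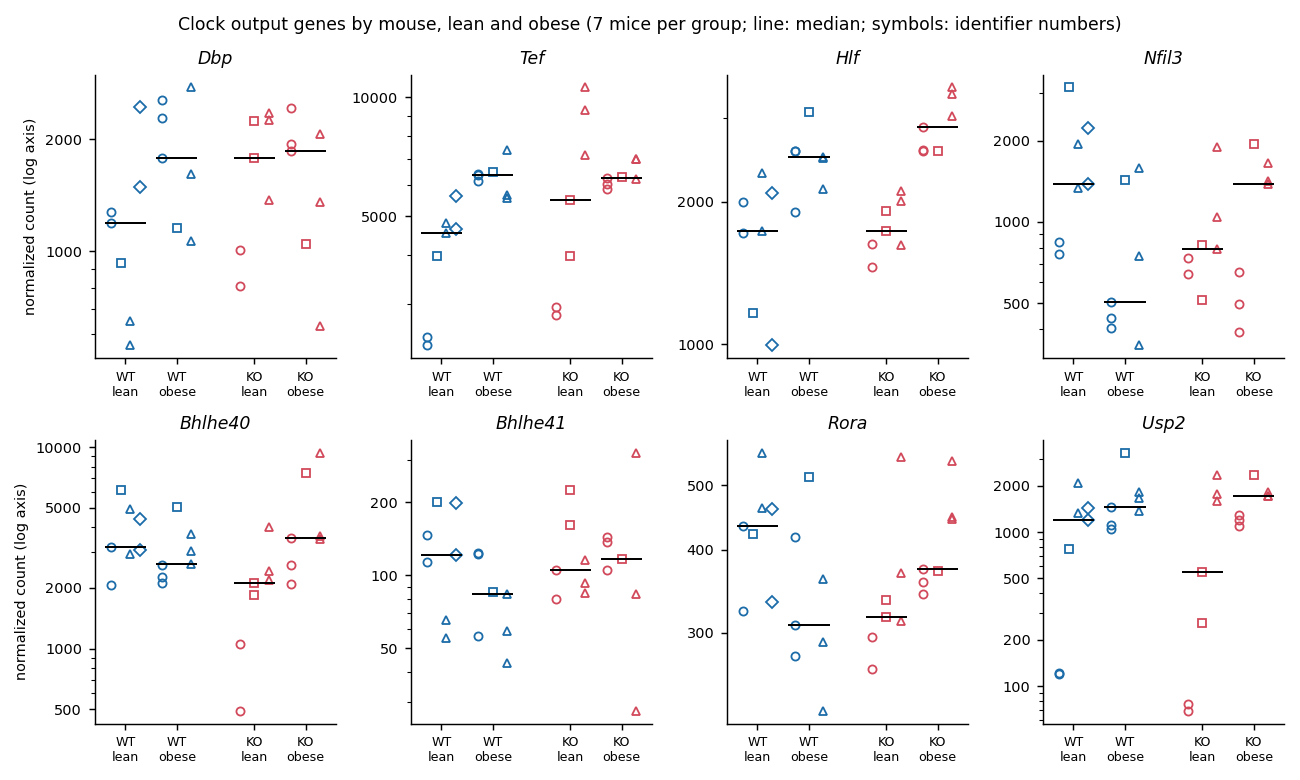
Normalized counts (log axis) of the 8 genes in each lean and obese mouse, WT in blue and KO in red, with the median of each group as a line and a separate symbol for each identifier number within a group. WT and KO values come from separate tables. Usp2 in lean mice falls to 120 (WT) and 69.1 (KO) in mice of 1 number each, while Hlf in KO obese mice lies above all KO lean mice.

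The same diet comparison in KO mice asks what obesity does when ChemR23 is absent. Of the 8 genes, 3 rose (Hlf, Bhlhe40 and Usp2) and 0 fell, against 10.4% of the 14213 genes tested (4.97% higher and 5.42% lower). Their median log2 fold change was 0.25, beside -0.0021 over all genes tested. With no fold threshold the count was 3 as well (24.1% of all genes), as it was at an unadjusted p under 0.05 (32.0% of all genes).

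Hlf ranged from 1458 to 2102 normalized counts with a median of 1732 in KO lean mice and from 2558 to 3485 with a median of 2870 in KO obese mice. All 7 obese mice lay above all 7 lean mice, which made Hlf the 1 gene of 8 whose groups did not overlap, against 2.10% of all genes tested. The log2 fold change was 0.72 ± 0.11, with an adjusted p of 0.00255. Tef and Dbp did not pass. Tef ran from 2815 to 10604 in KO lean mice and from 5846 to 6998 in KO obese mice, so the lean mice enclosed the obese ones, and its log2 fold change was 0.25 ± 0.26. That of Dbp was -0.08 ± 0.30.

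Bhlhe40, the E-box repressor that also responds to feeding and stress signals, ranged from 491 to 4019 with a median of 2122 in KO lean mice and from 2088 to 9371 with a median of 3526 in KO obese mice. The groups overlapped, with 3 lean mice below every obese mouse and 2 obese mice above every lean one. Its log2 fold change was 1.23 ± 0.41, with an adjusted p of 0.0515. Usp2 ran from 69.1 to 2349 with a median of 547 in KO lean mice, a 34.0-fold range, and from 1097 to 2348 with a median of 1708 in KO obese mice. Below every obese mouse lay 4 lean mice and above every one 1, and the log2 fold change of 1.72 ± 0.69 passed narrowly, at an adjusted p of 0.0999.

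The other KO values were 0.20 ± 0.36 on the log2 scale for Nfil3, -0.09 ± 0.39 for Bhlhe41 and 0.26 ± 0.15 for Rora, with adjusted p-values from 0.252 to 0.900. With the block on identifier number, Hlf alone of the 8 genes passed, and Bhlhe40 and Usp2 had adjusted p-values of 0.106 and 0.128. Usp2 also did not pass by edgeR or DESeq2 on the recovered reads, with log2 fold changes of 0.76 and 0.75. Without the mice of number 9, Bhlhe40 had a log2 fold change of 0.73 at an adjusted p of 0.188 and Usp2 one of 0.65 at 0.378. Without those of number 31, Hlf had a log2 fold change of 0.58, under the fold threshold, Bhlhe40 an adjusted p of 0.238 and Usp2 one of 0.316. Without the single KO obese replicate 7, 1 of the 8 genes passed. The call of Usp2 was lost in 11 of the 14 fits that left out 1 mouse.

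Markers of other cells moved in this comparison. Of the 5 Kupffer cell markers listed, 4 fell, and their summed level was 6173 to 14150 in KO lean and 3533 to 4660 in KO obese mice. The 3 adipocyte markers listed (Cfd, Plin4 and Car3) rose, with sums of 4381 to 46614 in KO lean and 41429 to 70582 in KO obese mice. Adipoq, the other gene of that list, was not listed in either diet table. Whether the rise stems from adipocytes was not tested. Of the adipocyte markers 1 of 3 also rose in WT mice (6738 to 58089 in lean, 32914 to 71304 in obese), where 0 of 5 Kupffer markers passed. Of 5 markers of sinusoidal endothelium 2 fell in KO mice, as did 2 of 4 lymphocyte markers, while 0 of 6 hepatocyte, 0 of 4 stellate cell, 0 of 4 cholangiocyte markers and the 1 pancreatic marker tested passed. Their part in the results for the 8 genes was not tested.

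The diet effect was then compared between genotypes. The difference in log2 fold change, KO minus WT, was 1.52 ± 0.50 for Bhlhe40, 1.38 ± 0.56 for Nfil3 and 0.60 ± 0.23 for Rora, and these 3 of the 8 genes had an unadjusted p under 0.05, against 18.3% of 13924 genes. None passed an adjusted p under 0.1, with adjusted p-values of 0.143, 0.189 and 0.175, and in all 0.00718% of genes did. Bhlhe40 and Rora passed with library quality weights, at adjusted p-values of 0.0277 and 0.0257, and Bhlhe40 by DESeq2 at 0.0542, settings under which 2563 and 926 of the 13924 genes passed in place of 1. Both also passed without the single mouse of number 22 (WT obese replicate 1), when 966 of all genes passed, and without the 3 mice of number 20 (893 genes), and without KO lean replicate 5 the count was 3, with Nfil3 (1847 genes). The differences of the other 5 genes ran from -0.78 ± 0.45 (Dbp) to 0.51 ± 0.52 (Bhlhe41).

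**Figure D2:**
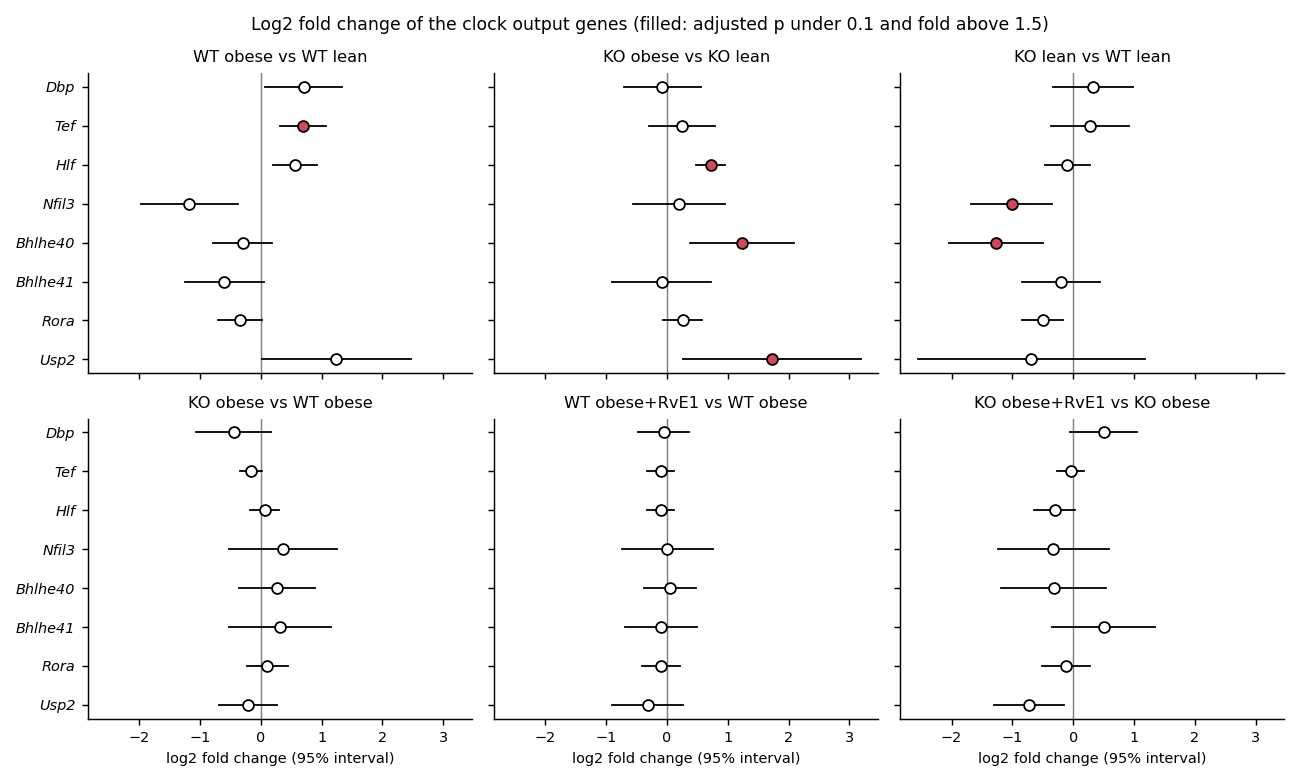
Log2 fold change of each of the 8 genes in 6 comparisons, with its 95% interval, filled where a gene was called. The filled points are Tef in the WT diet comparison, Hlf, Bhlhe40 and Usp2 in the KO diet comparison, and Nfil3 and Bhlhe40 between lean genotypes.

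Lean KO mice were set against lean WT mice to see what loss of the receptor does on the lean diet. Of the 8 genes, 2 fell, both repressors (Nfil3 and Bhlhe40), and 0 rose, against 6.65% of the 13031 genes tested (3.94% higher and 2.70% lower). At an unadjusted p under 0.05 there were 3, with Rora (26.8% of all genes), the count with no fold threshold was 3 too (16.3%), and 0 of the 8 had groups without overlap (0.744%). Their median log2 fold change was -0.35, beside -0.00042 over all genes tested.

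Nfil3 ranged from 787 to 3285 normalized counts with a median of 1450 in WT lean mice and from 464 to 1724 with a median of 721 in KO lean mice. The 5 lowest KO mice lay below every WT mouse. Its log2 fold change was -1.01 ± 0.32, with an adjusted p of 0.0615.

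Bhlhe40 ranged from 2152 to 6340 with a median of 3286 in WT lean mice and from 446 to 3662 with a median of 1927 in KO lean mice. Here too 5 KO mice lay below every WT mouse, and the log2 fold change was -1.26 ± 0.36 at an adjusted p of 0.0515. Rora had an adjusted p of 0.0634, but its log2 fold change of -0.50 ± 0.16 was a fold of 0.707, inside the fold threshold. Usp2 overlapped almost wholly (62.7 to 2140 in KO and 124 to 2143 in WT lean mice), and its log2 fold change of -0.69 ± 0.88 had a 95% interval from -2.56 to 1.18. The PAR bZIP activators had log2 fold changes of 0.33 ± 0.31 (Dbp), 0.27 ± 0.30 (Tef) and -0.09 ± 0.17 (Hlf), and Bhlhe41 one of -0.20 ± 0.30.

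Both calls were lost with the block on identifier number, at adjusted p-values of 0.146 for Nfil3 and 0.139 for Bhlhe40, when 3 genes in all passed. They were also lost without WT lean replicate 2 or 5 and without the mice of number 9, 21 or 26. Without number 9 the log2 fold change of Bhlhe40 was -0.76. The call of Nfil3 was lost without number 14 and without KO lean replicate 2, 3 or 6, and without number 20 there were 4 calls, with Rora and Usp2 added. Over all genes the count of calls was 866 in full, 15, 32 and 8 without number 9, 21 or 26, 818 without number 14 and 1363 without number 20. Rora passed with equal read totals (log2 fold change -0.62, adjusted p of 0.0309) and with library quality weights (-0.62, adjusted p of 0.00627). All 5 Kupffer cell markers listed were higher in KO lean mice, with sums of 5624 to 12830 against 2320 to 5490 in WT lean mice. Fcgr2b of the sinusoidal endothelium and Ms4a1 of lymphocytes were higher too, Krt19 of cholangiocytes was lower, and 0 of the hepatocyte, stellate cell and adipocyte markers passed. Their part in these results was not tested.

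The 7 obese mice of each genotype were compared directly as well. Of the 8 genes, 0 passed, against 0.0141% of the 14162 genes tested by limma (0.00706% higher and 0.00706% lower), in 0 were the groups without overlap (0.0282% of all genes), and 0 of the 8 had an unadjusted p under 0.05 (2.25% of all genes). The closest was Tef, at 6155 to 8077 normalized counts with a median of 7021 in WT obese mice and 5693 to 6732 with a median of 6012 in KO obese mice. Below every WT mouse lay 5 KO mice, yet the log2 fold change of -0.17 ± 0.08 had an adjusted p near 1 (0.99994). The log2 fold changes of the other 7 genes ran from -0.45 ± 0.29 (Dbp) to 0.37 ± 0.42 (Nfil3).

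RvE1 was compared with vehicle in obese mice of each genotype. In WT mice 0 of the 8 genes passed, as did 0.00% of the 13085 genes tested by limma, and 0 of the 8 had an unadjusted p under 0.05 (6.08% of all genes) or groups without overlap (0.107%). Usp2 ran from 843 to 2776 normalized counts with a median of 1208 with RvE1 and from 1226 to 3837 with a median of 1709 with vehicle. Its log2 fold change of -0.32 ± 0.28 had a 95% interval from -0.91 to 0.27. The other 7 genes lay closer to 0, between -0.10 ± 0.15 (Rora) and 0.05 ± 0.20 (Bhlhe40). For Tef and Hlf the 95% intervals, -0.33 to 0.12 in both, held no change as large as a fold of 1.5, while for Nfil3 the interval was -0.74 to 0.75. These intervals treat mice as independent and may be too narrow. In WT obese+RvE1 mice 87.0% of the variation of Tef and 68.3% of that of Hlf lay between 2 identifier numbers.

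In KO mice, which lack the receptor, RvE1 gave 0 calls by limma among the 8 genes either, against 0.00% of the 14207 genes tested, and groups without overlap in 0 of them (0.0211% of all genes). Usp2 was the 1 gene of 8 with an unadjusted p under 0.05 (8.30% of all genes). It ran from 401 to 1710 with a median of 1096 with RvE1 and from 1117 to 2367 with a median of 1714 with vehicle. Below every vehicle mouse lay 4 RvE1 mice and above every RvE1 mouse 4 vehicle mice, and the log2 fold change of -0.73 ± 0.27 had an adjusted p of 0.557. Dbp ran from 1526 to 2654 with RvE1 and from 634 to 2441 with vehicle, a log2 fold change of 0.50 ± 0.26, and the other genes from -0.32 ± 0.43 (Nfil3) to 0.50 ± 0.40 (Bhlhe41). The difference in RvE1 effect, KO minus WT, passed for 0 of the 8 genes, against 0.00% of 13059 genes, and ran from -0.41 ± 0.41 (Usp2) to 0.60 ± 0.52 (Bhlhe41). Of the 8 genes 0 had an unadjusted p under 0.05 there (2.38% of all genes).

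**Figure D3:**
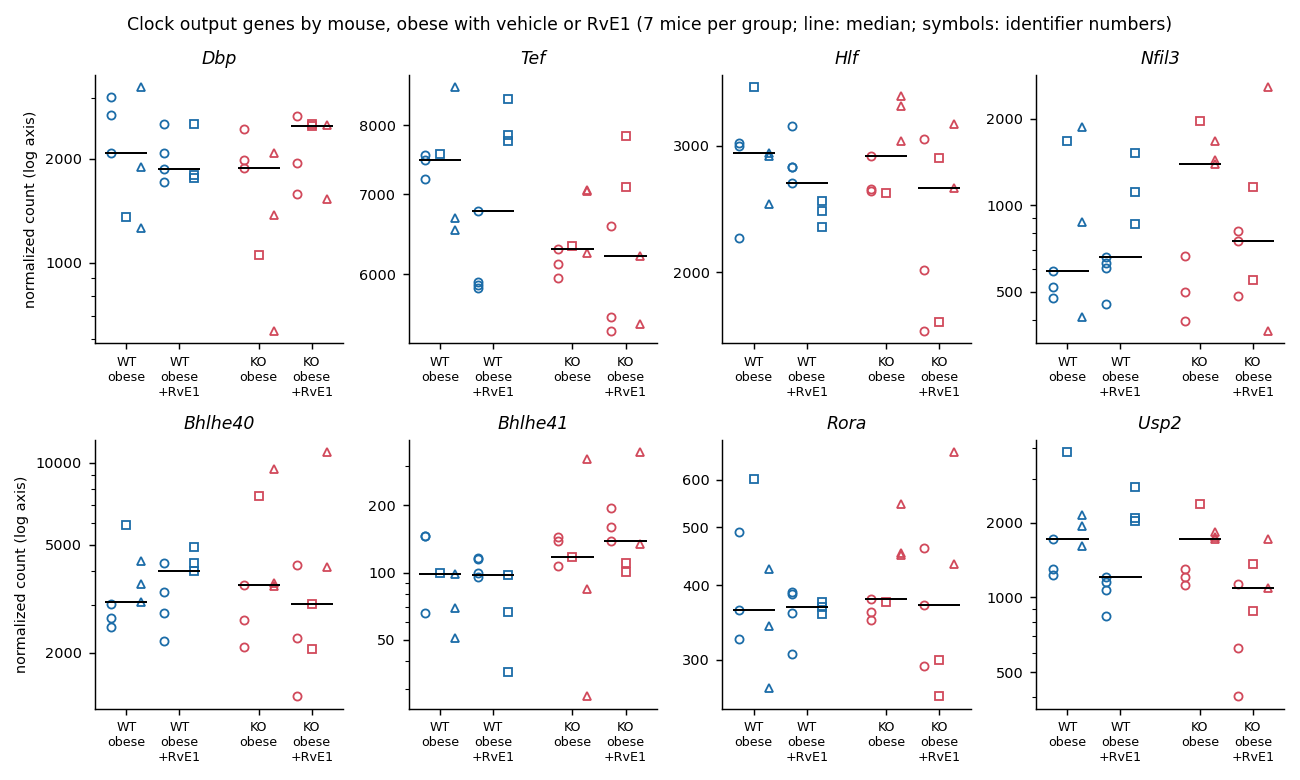
Normalized counts (log axis) of the 8 genes in each obese mouse given vehicle or RvE1, WT in blue and KO in red, with the group median as a line and a symbol for each identifier number within a group. The groups overlap in all 8 genes in both genotypes, and Usp2 in KO mice has a median of 1096 with RvE1 and 1714 with vehicle.

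The other genes of the clock and the known targets of the PAR bZIP factors were followed alongside. Of 14 core clock genes tested in WT mice, Per3, an E-box target and period gene, rose with the diet (log2 fold change 1.48 ± 0.24), and Clock (-0.70 ± 0.15) and Npas2 (-1.93 ± 0.55), which encode partners of BMAL1, fell. Npas2 was low, at 2.49 ± 1.73 normalized counts (mean ± SD) in WT obese and 15.5 ± 15.8 in WT lean mice. Its limma adjusted p was 0.0671. The median of the 14 was 0.04, beside 0.0030 over all genes. In KO mice Per2 (1.31 ± 0.30) and Per3 (1.11 ± 0.32) were among those that rose and Npas2 (-1.47 ± 0.57) fell, with a median of 0.12 beside -0.0021. Npas2 was low there too, with means of 3.51 in KO obese and 12.3 in KO lean mice and a limma adjusted p of 0.0901. Of the 14 genes 0 passed between KO lean and WT lean mice, where 6.65% of all genes were called, and 0 of 13 passed in the other 3 comparisons.

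Of 7 target genes of the PAR bZIP factors, 5 rose with the diet in WT mice and 0 fell, against 2.26% of all genes called higher. They were the bile acid enzyme gene Cyp7a1 (log2 fold change 1.17 ± 0.36), the cytochrome P450 genes Cyp2a4 (1.95 ± 0.42), Cyp2a5 (1.77 ± 0.43) and Cyp2b10 (3.20 ± 0.54), and Nr1i3 (0.94 ± 0.29), the gene of the drug-sensing receptor CAR. By limma Cyp7a1 and Nr1i3 passed narrowly, at adjusted p-values of 0.0895 and 0.0912. Cyp2b10 was low in lean mice, at 4.96 ± 2.73 normalized counts (mean ± SD) in WT lean and 77.7 ± 92.5 in WT obese mice. It thus reached the mean of 5 needed for testing only through the obese group, and its call is no independent support. In KO lean mice Cyp2b10 stood at 9.00 ± 10.5 and in KO obese mice at 137 ± 97.9. The median log2 fold change of the 7 was 1.17, beside 0.0030 over all genes. In KO mice 4 of the 7 rose, against 4.97% of all genes, Cyp2a4 (2.30 ± 0.54), Cyp2a5 (2.20 ± 0.56), Cyp2b10 (4.22 ± 0.65) and Nr1i3 (0.60 ± 0.10), and the median of the list was 0.60, beside -0.0021. Cyp2a4 and Cyp2a5 are close copies, and reads could have been split between them. Of the 7 genes 0 passed with RvE1 or between obese genotypes, and 0 of the 6 tested between lean genotypes. The list was chosen with earlier results of these data known, and its genes were not followed with the block on identifier number.

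Mice that share an identifier number lay close together in Usp2 and Tef. Of the variation of log2(normalized count + 1) between mice of 1 group, taken over 42 mice and 13046 genes, 94.2% lay between identifier numbers for Usp2 and 90.1% for Tef. The median over all genes was 47.4%, with 33.3% of the within-group degrees of freedom lying between numbers. The shares were 66.0% for Bhlhe40, 60.7% for Dbp, 58.5% for Rora, 57.7% for Nfil3, 42.6% for Hlf and 41.8% for Bhlhe41. Of all genes, 99.99% had a smaller share than Usp2 and 99.91% a smaller one than Tef. These shares are a description with no test, and the SD between mice of 1 group was smaller in 99.2% of all genes than in Usp2 and in 66.4% than in Tef.

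The values by number show how this looks in single groups, and the groups differed. Within WT obese mice 4.26% of the variation of Tef lay between numbers, where the median of all genes was 43.0%. The lowest share of Usp2 was 49.1%, in KO obese+RvE1 mice, where that median was 30.2%. In WT lean livers the 2 mice of number 8 had 120 and 121 normalized counts of Usp2, the single mouse of number 19 had 779, and the 4 mice of numbers 21 and 26 had 1200 to 2066. In KO lean livers the 2 mice of number 9 had 69.1 and 76.3, those of number 14 had 255 and 547, and the 3 of number 20 had 1579 to 2349. Tef followed the same order in KO lean livers, at 2815 and 2937 for number 9, 3976 and 5509 for number 14 and 7131 to 10604 for number 20. In WT lean livers the lowest Tef values, 2353 and 2472, were again those of number 8.

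Dbp took another order. Its lowest WT lean values, 560 and 650, were those of number 21, whose Usp2 was among the highest, and its highest, 1486 and 2430, those of number 26. Core clock genes differed between these WT lean numbers as well. In number 21 Arntl stood at 191 and 202 and Nr1d1, the REV-ERB gene, at 407 and 515, while in number 26 Arntl stood at 34.8 and 37.2 and Nr1d1 at 2297 and 3682. Number 8 had Arntl at 85.4 and 98.9, Nr1d1 at 2722 and 2982 and Per2 at 361 and 457. In KO lean livers Nr1d1 did not follow Dbp. Number 9 had means of 910 for Dbp and 1814 for Nr1d1, and number 20 had 1989 and 850. In WT obese+RvE1 mice Usp2 was 843 to 1208 in the 4 mice of number 7 and 2024 to 2776 in the 3 of number 30.

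**Figure D4:**
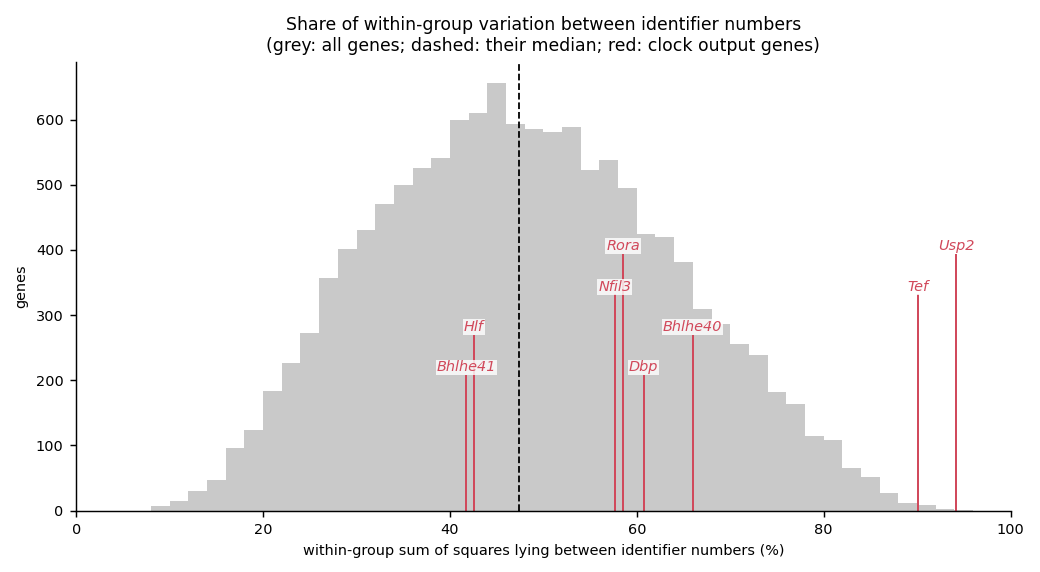
Share of the within-group variation between mice that lies between identifier numbers, in percent, for 13046 genes (grey, number of genes on the vertical axis) with their median as a dashed line and the 8 clock output genes in red. Usp2 (94.2%) and Tef (90.1%) stand at the far right, and Hlf (42.6%) and Bhlhe41 (41.8%) lie below the median of 47.4%.

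How the 8 genes varied together was measured from deviations of each mouse from its group mean, over 42 mice, with a two-sided permutation test (100000 permutations of mice within groups) and adjustment over all 28 pairs. By Pearson's r, 12 pairs had an adjusted p under 0.05, 11 positive and 1 negative. The closest pair was Tef and Usp2, with r = 0.89 and Spearman's rho = 0.80, each at a permutation p of 1e-05, the smallest these permutations can give, and an adjusted p of 0.00014. Without the 2 mice farthest from the median of Tef, r was 0.87. Bhlhe40 varied with Usp2 (r = 0.64, rho = 0.68, adjusted permutation p of 0.00014 for both), with Nfil3 (r = 0.62, rho = 0.57, adjusted permutation p of 0.00047 and 0.0023) and with Rora (r = 0.61, rho = 0.53, adjusted permutation p of 0.00091 and 0.0060).

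Dbp and Nfil3, an activator and the repressor of the same elements, were the 1 negative pair among those with an adjusted p under 0.05 (r = -0.45, rho = -0.47, adjusted permutation p of 0.019 and 0.018). Dbp and Rora came next (r = -0.35, rho = -0.32, adjusted permutation p of 0.065 and 0.11). Without the 2 farthest mice r of Dbp and Nfil3 was -0.45, and 8 of the 28 pairs then had an adjusted p under 0.05. The PAR bZIP genes varied with each other by less, with r = 0.32 for Dbp and Tef (rho = 0.24, adjusted permutation p of 0.16 and 0.27), 0.02 for Dbp and Hlf (rho = 0.02, adjusted permutation p of 0.97 and 0.95) and 8.7e-05 for Tef and Hlf (rho = -0.03, adjusted permutation p of 0.9995 and 0.95).

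Since mice of 1 number lay close together in some of these genes, r was also taken from deviations within group and number. There 0 of 28 pairs had an adjusted permutation p under 0.05, and 4 had an unadjusted one. The r of Tef and Usp2 was then 0.19, that of Bhlhe40 and Usp2 0.34 and that of Dbp and Nfil3 -0.58 (permutation p of 0.0030, adjusted 0.083). Of the 12 pairs, 9 kept their sign, and Tef with Nfil3 (0.32 against -0.26), Tef with Bhlhe40 (0.44 against -0.10) and Nfil3 with Usp2 (0.46 against -0.06) did not.

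**Figure D5:**
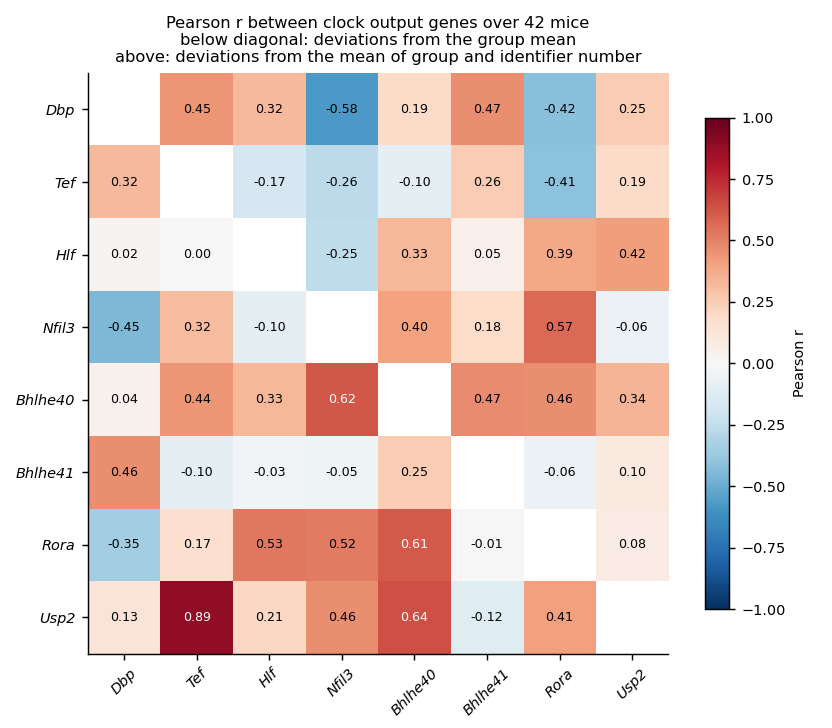
Pearson r for each pair of the 8 genes over 42 mice, as numbers and colours, from deviations from the group mean (below the diagonal) and from the mean of mice that share group and identifier number (above it). Tef and Usp2 go from 0.89 below to 0.19 above, while Dbp and Nfil3 go from -0.45 to -0.58.

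Among 13046 genes, those whose within-group pattern over the 42 mice was most like that of each gene were listed by r alone, as a description. For Usp2 they were Klf13 (0.93), Cyp2a5 (0.91) and Sord (0.89), and for Tef they were Ngef (0.90), Usp2 (0.89) and Cyp2a5 (0.87). For Nfil3 they were Rlf, Tiparp and Flcn (0.85 to 0.87), for Bhlhe40 Hs6st1, Dusp1 and Lonrf1 (0.82 to 0.85), for Hlf Tnks1bp1, Fnip2 and Lrp4 (0.77 to 0.89) and for Rora BC005537, Foxn3 and Jmjd1c (0.80 to 0.83). The closest genes to Dbp (Fancg, Fbxl21 and Fgfrl1, 0.65 to 0.68) and to Bhlhe41 (Nup88, Phf17 and Cyr61, 0.59 to 0.71) were less like them. All these r include differences between identifier numbers, and genes were not ranked within numbers. For Tef and Usp2 the r of 0.89 was 0.19 within numbers.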

How the data were processed

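Whole-liver RNA of 42 mice was sequenced as stranded read pairs, 1 library per mouse. Per the labels and methods, the authors aligned reads to mm10 with Bowtie2, counted pairs with both ends mapped with featureCounts and normalized them with DESeq2 in 6 separate tables of 14 libraries (versions, annotation, strand setting: not given in the sources used here). The deposited values are signal in the form of normalized counts, and all (100%) were whole multiples of the worth of 1 read within 0.1 reads, so reads were recovered. The authors' log2 fold changes and p-values in the deposited tables were not used, and date-like names were kept in the tests but not named. Groups came from the sample labels.

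Log2(normalized count + 1) was tested with limma (3.58.1, eBayes with trend, R 4.3.3), with p-values two-sided, for genes whose mean reached 5. Interactions were fitted likewise and called from the adjusted p alone. Fold changes are on this log2 scale and understate low genes. A call in a comparison also needed a fold change above 1.5. All tests treat mice as independent replicates. Named genes were the 8, a core clock list, a PAR bZIP target list, marker lists and the 3 genes most like each by r; 1 result of the clock list is not reported here. The members and lists were chosen with earlier results of these data known. Alternatives included edgeR (4.0.16) and DESeq2 (1.42.0) on recovered reads. Leaving out mice by identifier number and r within numbers were added after seeing the data. The procedure was tested on simulated data. Motifs and r were computed in Python.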

Additional observations from a re-analysis of the deposited data

Results flagged for a closer look

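In 8 of 48 sets, each 1 gene in the 7 mice of 1 group, the highest or lowest mouse stood apart by Dixon's test on normalized counts without logs. For values with a normal spread, chance gives this in about 1 of 20 sets. Whether these counts have such a spread was not tested, so 8 of 48 cannot be set against that rate. In KO obese+RvE1 the highest mouse had 2582 normalized counts of Nfil3 (next 1155), 10940 of Bhlhe40 (next 4203) and 347 of Bhlhe41 (next 196), all in a mouse of number 23. In KO lean the highest mouse had 1893 of Nfil3 (next 1044) and 552 of Rora (next 369), both in a mouse of number 20. In KO obese the highest mouse had 320 of Bhlhe41 (next 144). In WT obese the single mouse of number 22 had 3273 of Usp2 (next 1822). In WT obese+RvE1 the lowest mouse had 307 of Rora (next 358).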

How the results depend on the processing

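The count of the 8 genes called in the WT diet comparison was 1 and became 2 with a pseudocount of 4, equal read totals, DESeq2, no fold threshold or without the mice of number 8, 22 or 26, 3 without number 21, and 0 with the replicate block, 1 mean per number, a log2 fold change above 1.5 or without number 6 or 27. With quality weights it was 1, Nfil3 in place of Tef. In the KO diet comparison it was 3 and became 1 with the block, an adjusted p under 0.05, a log2 fold change above 1.5 or without number 9, and 0 with 1 mean per number or without number 31. It was 2, with Usp2 lost, with a pseudocount of 0.5 (adjusted p of 0.1004), no filter (0.1021), edgeR, DESeq2 or without number 14 or 23, 3 without number 10, with Nfil3 in place of Usp2, and 4 without number 20, with Tef. Between lean genotypes it was 2 and became 0 with the block, 1 mean per number, an adjusted p under 0.05, a log2 fold change above 1.5 or without number 9, 21 or 26, 1 without number 14, 4 without number 20, and 3, with Rora, with equal totals, quality weights or no fold threshold. For the diet by genotype difference it was 0 and became 2 with quality weights or without number 20 or 22 and 1 by DESeq2. Leaving out 1 mouse at a time gave 1 to 3 calls in the WT diet comparison, 1 to 3 in the KO one, 0 to 3 between lean genotypes and 0 to 3 for the difference in diet effect. Among the correlated pairs, 12 became 0 within numbers. In the other 3 comparisons and the RvE1 difference the count was 0 under every alternative run. The cause was not tested for any of these changes, beyond the fewer mice or stricter limits they use.

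Values that turned sign were not called, and each was smaller in size than its SE in the main fit. The largest there were those of Nfil3 in the RvE1 difference (-0.33 ± 0.59) and of Tef between lean genotypes (0.27 ± 0.30). In KO mice the diet value of Dbp was 0.068 with equal totals and 0.22 with weights, and that of Bhlhe41 0.060 with equal totals, 0.12 by edgeR and 0.11 by DESeq2. That of Tef between lean genotypes was -0.12 with weights. With 1 mean per number, Hlf was -0.055 and Rora -0.064 between obese genotypes, and Hlf -0.0093 in the diet difference. With RvE1 in WT mice, Nfil3 was -0.0044 with TMM, -0.058 with the block, -0.18 with 1 mean per number, -0.16 with weights, -0.15 by edgeR and -0.14 by DESeq2, Dbp 0.0028 with the block and 0.081 with means, and Bhlhe40 -0.082 with means. With RvE1 in KO mice Tef was 0.033 with equal totals. In the RvE1 difference Rora was 0.0082 with TMM, 0.066 with equal totals, 0.10 with the block, 0.16 with means, 0.11 by edgeR and 0.090 by DESeq2, and Nfil3 0.17 with weights. Without 1 mouse, values ran from -0.24 to 0.13 (Dbp) and -0.34 to 0.24 (Bhlhe41) for the KO diet, from -0.18 to 0.048 (Dbp), -0.16 to 0.22 (Nfil3), -0.025 to 0.18 (Bhlhe40), -0.23 to 0.10 (Bhlhe41) and -0.19 to 0.00014 (Rora) for RvE1 in WT mice, and from -0.15 to 0.079 for Rora in the RvE1 difference.

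Over all genes, the WT diet count of 532 became 242 with the block, 18 with 1 mean per number, 768 with weights and 105 above a log2 fold change of 1.5, the KO diet count of 1476 became 750, 2, 2155 and 135, and the lean genotype count of 866 became 3, 299, 1536 and 11. The diet by genotype difference passed for 1 gene, and for 2563 with weights, 926 by DESeq2, 893 without number 20, 966 without number 22 and 1847 without KO lean replicate 5. Equal read totals moved the median of all genes by 0.14 in the KO diet comparison, with 1324 higher and 351 lower calls against 706 and 770, and by -0.12 between lean genotypes, with 265 and 734 against 514 and 352. The numbers of the labels mark no stated cage, litter or day, and the correlation within numbers that limma estimated over all genes was 0.06 to 0.37. KO obese and KO obese+RvE1 mice share number 23 only, so the block compares mostly different numbers. At 7 mice per group the SE of the log2 fold change of Usp2 was up to 0.88 in the 6 comparisons and that of Hlf at most 0.17.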
